A study of Mus musculus with 54 samples.

Results

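Ba/F3-gp130 is a mouse pro-B cell line that carries gp130, the signalling chain shared by receptors of the interleukin-6 family, and that was grown in Hyper-IL-6, in which interleukin-6 is joined to its soluble receptor. CIR-1, CIR-2 and CIR-3 are lines of Ba/F3-gp130 cells transfected with 1 of 3 constructs of a Cargo Internalization Receptor. The response of these 3 lines to 1 h with GFP-PFC emulsion, a perfluorocarbon emulsion whose name includes green fluorescent protein, is described here from 18 of the 54 deposited samples. Those 18 are the gene-level values of 9 GFP-PFC arrays and 9 unstimulated arrays, 3 of each kind per line, chosen by their titles alone. The series holds 27 arrays in 9 groups of 3, each array deposited at gene level and at exon level.

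All groups used here, the unstimulated controls among them, had the same growth, washes and serum-free time before stimulation. Cells grown with 10 ng/ml Hyper-IL-6 went through 4 washes in PBS and 3 h without serum. GFP-PFC cells then received 50 µl emulsion per ml of serum-free medium for 1 h. No time is given for unstimulated cells over that hour, so an equal time without serum is not shown. Untransfected parental cells with and without GFP-PFC, and parental cells given 100 ng/ml Hyper-IL-6 for 1 h as the positive stimulation control, serve for comparison below. The labels name no control with emulsion-free liquid, do not say whether a CIR line is a clone or a pool, and give no separate culture for each array, so p values measure the spread between these arrays. The study set out to see what the constructs do to the cells' expression in general.

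Growth factors and many other stimuli activate the ERK branch of the MAP kinase cascade, which within minutes raises immediate early genes such as Egr2 and Fosl1. It also raises its own inhibitors, the dual-specificity phosphatases (Dusp) and the Sprouty and Spred proteins. Signalling through gp130 acts mainly through the transcription factor STAT3, whose early targets include Socs3. Lipid handling is read from other genes, among them targets of the sterol sensor LXR, targets of the fatty acid sensors called PPARs, and genes that coat lipid droplets.

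Values are taken as log2 signal, and a difference is GFP-PFC minus unstimulated on that scale. Array medians of the 18 arrays lay between 7.52 and 7.63 and lower quartiles between 6.22 and 6.31. A mean below the lower quartiles is not shown to lie above background. The arrays numbered 1 and 2 stood apart from the rest in each line, on a component that held 42.3% of the variance around group means, at 10.4 to 19.6 against -9.79 to -3.96 for the other arrays. Calls of list members and leading genes that ended without these arrays are therefore named below. Several defining B-lineage genes lay below the lower quartiles in the unstimulated CIR arrays, with Ebf1 at a mean of 5.92, Rag2 at 5.20, Dntt at 6.03 and Il7r at 5.29. Pax5, at 7.25, lay above the lower quartiles and below the array medians. Cd79a (9.78), Cd79b (10.2), Ikzf1 (11.3) and the IL-3 receptor chain Csf2rb (13.4) were bright. Some genes usually seen in myeloid and erythroid cells were bright too, with Gata2 at 13.3, Prtn3 at 12.7, Fcer1g at 12.4 and Gata1 at 10.98. Each lay above the mean of its marker list, so it does not stand for the list. Those means over an unstimulated array were 7.46 to 7.67 for mast cells and basophils and 7.95 to 8.20 for neutrophils. For erythroid and megakaryocyte markers they were 9.10 to 9.33. Mouse Il6st, the gene of gp130, had a mean of 6.34.

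In the mean of the 3 CIR lines, GFP-PFC raised immediate early and feedback genes of ERK signalling and lowered a small set led by Rnf145 and Ccng2. Of 19936 genes tested, 126 (0.632%) passed an adjusted p of 0.05, with 109 higher (0.547%) and 17 lower (0.0853%). Each array reads a whole culture, so fewer cells with a transcript and less of it per cell cannot be told apart. The changes were small, with a median of 0.24 among the called rises and -0.21 among the called falls, beside -0.01 over all genes tested. The differences that reached 1 on the log2 scale, a doubling of signal, were those of Dusp6, Egr2, Dusp5 and Plk3, all rises. Of the 126, 125 had the same sign in each of the 3 lines. The genes were called on the mean of these same lines, which favours a shared sign, so that count is a description. The call rests on 3 blocks of consecutive array numbers (1 and 2, 3 and 4, 5 and 6). Without the block 16 genes were called, all of them among the 126, and without the arrays numbered 1 and 2 there were 49, of which 36 were among the 126. The 16 genes called with and without the block were Dusp4, Dusp5, Dusp6, Egr2, Fosl1, Ier2, Il6, Cflar, Ms4a2, Gm4907, Gpr171, Jam2 and Paqr7, which rose, and Rnf145, Hbp1 and Zkscan14, which fell.

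Phosphatases that switch ERK off were among the highest rises. Dusp6, the cytoplasmic phosphatase specific for ERK, read 11.06, 9.71 and 9.98 in unstimulated CIR-1 arrays 1, 3 and 5 and 11.74, 11.61 and 11.13 in GFP-PFC arrays 2, 4 and 6. In CIR-2 the same arrays read 10.85, 9.85 and 10.19 and then 11.52, 11.41 and 10.77. In CIR-3 they read 9.96, 9.86 and 11.07 and then 11.66, 12.14 and 12.18. All 9 consecutive pairs rose, and the groups overlapped only in CIR-2. The mean difference was 1.29 (SE 0.20, adjusted p = 0.00724), a 2.45-fold rise, with 1.24, 0.93 and 1.69 in the lines in order. It was 1.01 in the pairs of numbers 1 and 2, 1.91 in those of 3 and 4 and 0.94 in those of 5 and 6.

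Dusp5, a nuclear ERK phosphatase, had the smallest adjusted p of the feedback genes. It read 9.55, 9.63 and 10.02 in unstimulated CIR-1 arrays and 10.53, 10.81 and 10.97 after GFP-PFC. In CIR-2 the values were 9.33, 9.73 and 9.98 and then 10.37, 10.79 and 10.59, and in CIR-3 they were 9.58, 10.03 and 10.75 and then 10.59, 11.58 and 11.93. All 9 pairs rose, and the groups overlapped only in CIR-3, where the unstimulated array 5 was high. The mean difference was 1.06 (SE 0.10, adjusted p = 2.05e-04), with 1.04, 0.91 and 1.24 in CIR-1, CIR-2 and CIR-3. Dusp4, another nuclear phosphatase of the family, rose by 0.74 (SE 0.11, adjusted p = 0.00536) and did so in 9 of 9 pairs.

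Egr2, a zinc finger immediate early factor, was separated in every line. Its unstimulated arrays read 8.20, 7.82 and 8.13 in CIR-1 and its GFP-PFC arrays 9.32, 9.21 and 8.99. The values were 8.14, 7.90 and 8.12 and then 8.89, 8.85 and 8.63 in CIR-2, and 7.98, 8.16 and 8.79 and then 9.08, 9.65 and 10.72 in CIR-3. No GFP-PFC array lay below an unstimulated array of its line. Such a separation upward in all 3 lines held for 22 genes (0.11% of those tested). The Egr2 difference was 1.12 (SE 0.16, adjusted p = 0.00309), with 1.12, 0.74 and 1.51 in the 3 lines. Its relative Egr1 differed by 0.03 (SE 0.04, adjusted p = 0.941) at unstimulated signals of 7.28 to 7.54.

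**Figure D1:**
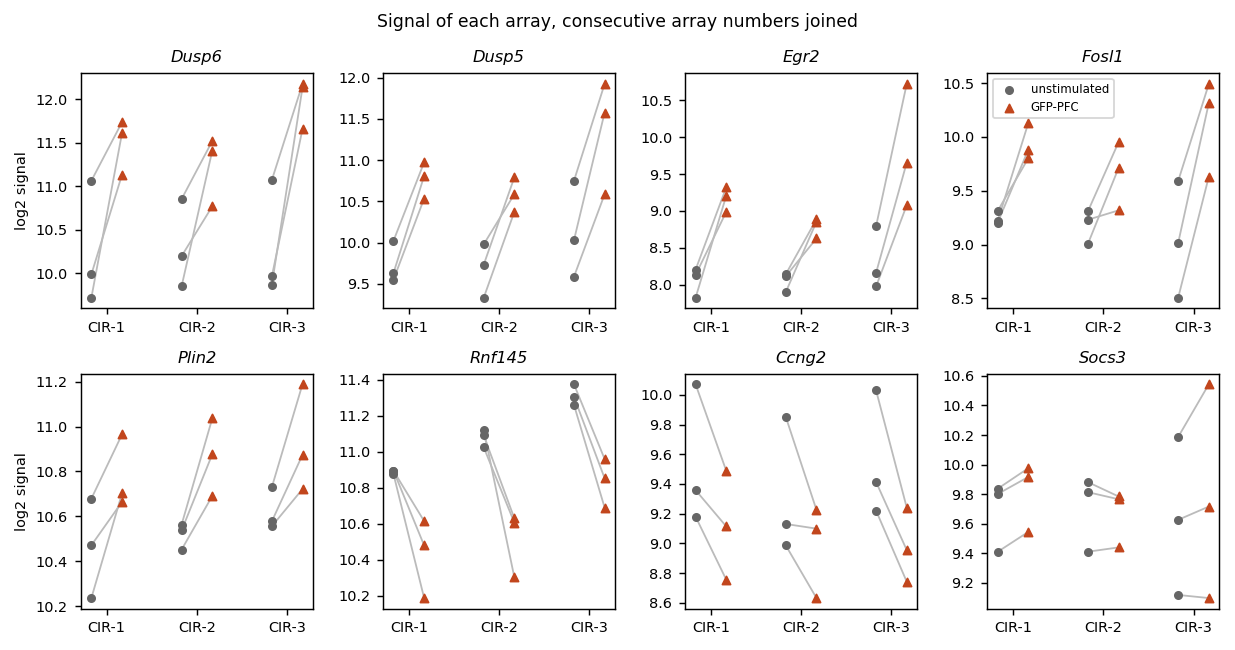
Log2 signal of 8 genes in the 18 arrays, with CIR-1, CIR-2 and CIR-3 along the horizontal axis, unstimulated arrays as grey circles, GFP-PFC arrays as orange triangles and consecutive array numbers joined by lines. Dusp6, Dusp5, Egr2, Fosl1 and Plin2 rose and Rnf145 and Ccng2 fell in 9 of 9 pairs, while Socs3 rose in 6 of 9 and was not called.

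The promoters of Egr2, Dusp5 and Srf are shown because these called genes carry CArG boxes, the sequence bound by the serum response factor SRF. SRF is a target of ERK signalling through its partner ETS factors and is itself encoded by one of the 3 genes. Each sequence is the 250 bases before the gene's start in RefSeq's GRCm38.p6 annotation, 5′ to 3′ on the gene's strand, with CArG boxes in capitals.
Egr2, chr10:67537316-67537565, plus strand: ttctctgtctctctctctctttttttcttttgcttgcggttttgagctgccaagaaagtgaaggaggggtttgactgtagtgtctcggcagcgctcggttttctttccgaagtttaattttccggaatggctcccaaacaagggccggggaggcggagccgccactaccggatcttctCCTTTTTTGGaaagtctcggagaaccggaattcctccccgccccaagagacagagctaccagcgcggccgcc
Dusp5, chr19:53528895-53529144, plus strand: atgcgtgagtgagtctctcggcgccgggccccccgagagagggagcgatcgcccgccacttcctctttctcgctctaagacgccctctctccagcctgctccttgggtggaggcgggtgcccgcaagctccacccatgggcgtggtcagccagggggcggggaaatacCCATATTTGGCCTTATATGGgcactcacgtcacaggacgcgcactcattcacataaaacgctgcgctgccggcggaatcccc
Srf, chr17:46556163-46556412, minus strand: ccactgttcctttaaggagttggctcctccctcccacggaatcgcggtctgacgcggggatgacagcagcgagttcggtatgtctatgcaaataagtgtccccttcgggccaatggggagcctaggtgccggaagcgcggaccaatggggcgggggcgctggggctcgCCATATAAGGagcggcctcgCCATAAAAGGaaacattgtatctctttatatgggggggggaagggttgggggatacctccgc
The box of Egr2 begins 72 bases before the start. Dusp5 holds 2 adjoining boxes that begin 82 and 72 bases before it, and Srf holds 2 that begin 82 and 62 bases before it.

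A CArG box was found on either strand in 535 of 32851 windows (1.63%) of 300 bases, which hold the 250 bases before a start and the 50 after it. Among tested genes with a window it was found in 254 of 15614 (1.63%), and among called rises with a window in 5 of 87 (5.75%), namely Egr2, Dusp5, Srf, Cnn2 and Sinhcaf. Of 16 called falls with a window, 1 held it (Clec2e, whose signal lay below the lower quartiles). The ETS motif CCGGAAG was in 15 of the 87 windows (17.2%) beside 13.6% of tested genes, and the AP-1 motif TGANTCA in 5 (5.75%) beside 8.08%. The cyclic AMP element TGACGTCA was in 4 of the 87 (4.60%) beside 2.72%, and the forkhead motif GTAAACA in 5 (5.75%) beside 3.54%. Of the 16 called falls with a window, 3 held the ETS motif. The AP-1, cyclic AMP and forkhead motifs were each in 1 of the 16. These motifs were also read on both strands. A window counts once however many sites it holds, and a match describes the letters of the window only.

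The members of this list and of the lists below were chosen with earlier results of these data known. Their shares beside those of all genes are therefore a description and no test of a list. Of 30 measured immediate early genes, 10 rose, beside 0.547% of all genes, and none fell, with a median of 0.18 beside -0.01 over all genes. In 9 of 9 pairs 15 were higher, beside 1.86% of all genes. The rises were those of Egr2, Plk3, Phlda1, Fosl1, Myc, Btg2, Ier2, Fosl2, Junb and Srf. Without the block 3 of the 10 were called (Egr2, Fosl1 and Ier2), and without the arrays numbered 1 and 2 there were 6, all among the 10 (Btg2, Egr2, Fosl2, Ier2, Myc and Plk3).

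Fosl1, an AP-1 subunit whose gene is kept on by lasting ERK activity, read 9.20, 9.22 and 9.31 in unstimulated CIR-1 arrays and 9.88, 10.13 and 9.80 after GFP-PFC. It read 9.01, 9.31 and 9.23 and then 9.71, 9.95 and 9.32 in CIR-2, and 8.51, 9.01 and 9.59 and then 9.63, 10.32 and 10.49 in CIR-3. The arrays did not overlap within any line, although in CIR-2 and CIR-3 the nearest values were close. The mean difference was 0.76 (SE 0.12, adjusted p = 0.00705), with 0.69, 0.48 and 1.11 in the lines, and it was 0.72 (adjusted p = 0.054) without the arrays numbered 1 and 2. At exon level it was 0.40 and not called (adjusted p = 0.0585), from 2 probe sets at 0.0014 and 0.80. Fosl2, another AP-1 subunit, rose by 0.33 (SE 0.05, adjusted p = 0.00598) and Junb by 0.29 (SE 0.06, adjusted p = 0.0243).

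Plk3, a stress-responsive polo-like kinase, rose by 1.06 (SE 0.14, adjusted p = 0.00232) from signals of 8.54 to 10.22 to signals of 9.69 to 11.47. Phlda1, a pleckstrin homology protein, rose by 0.77 (SE 0.13, adjusted p = 0.0112), and its call was lost without the arrays numbered 1 and 2 (adjusted p = 0.0511). Myc, the growth regulator, read 11.65 to 12.68 unstimulated with a median of 12.22 and 12.37 to 13.28 after GFP-PFC with a median of 12.77. It rose by 0.55 (SE 0.07, adjusted p = 0.00241) in 9 of 9 pairs. Its relative Mycn rose by 0.58 (SE 0.07, adjusted p = 0.00136).

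Other called genes of the list rose by less. Ier2, a short-lived nuclear protein, rose by 0.41 (SE 0.05, adjusted p = 0.00126), with 0.37, 0.28 and 0.58 in CIR-1, CIR-2 and CIR-3. Btg2, an antiproliferative cofactor of mRNA decay, rose by 0.42 (SE 0.07, adjusted p = 0.0112). Srf rose by only 0.17 (SE 0.03, adjusted p = 0.00598), with 0.17, 0.16 and 0.19 in the lines, and lost its call without the arrays numbered 1 and 2. Fosb was higher by 0.97 (SE 0.27, adjusted p = 0.205) and in 9 of 9 pairs without passing the test, and it is named here after its value was seen. Zfp36, which destabilises cytokine mRNAs, differed by 0.50 (SE 0.11, adjusted p = 0.0666).

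Of 17 ERK feedback genes, 9 were higher in 9 of 9 pairs, beside 1.86% of all genes, with a list median of 0.15. As called, 5 rose, beside 0.547% of all genes, and none fell. Beside Dusp6, Dusp5 and Dusp4 these were Dusp16, a phosphatase of JNK and p38, at 0.34 (SE 0.06, adjusted p = 0.0182), and Spred2, an inhibitor of Ras to Raf signalling, at 0.15 (SE 0.03, adjusted p = 0.0466). The other 12 differed by -0.07 to 0.23. Spry4 was at 0.21 (SE 0.05, adjusted p = 0.0519), Spry2 at 0.23 (SE 0.07, adjusted p = 0.313) and Dusp1 at 0.14 (SE 0.16, adjusted p = 0.917). Without the block 3 were called (Dusp4, Dusp5 and Dusp6), and without the arrays numbered 1 and 2 these 3 and Dusp10, which was not called in the 18 arrays, while Dusp16 and Spred2 lost their calls. Leaving out 1 array at a time ended the Spred2 call in 15 of 18 cases. Of 25 genes of the ERK pathway itself, 2 rose, beside 0.547% of all genes. These were the ETS factors Ets2 at 0.25 (SE 0.05, adjusted p = 0.0331) and Etv5 at 0.23 (SE 0.04, adjusted p = 0.0215). None of the 25 was called without the arrays numbered 1 and 2.

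**Figure D2:**
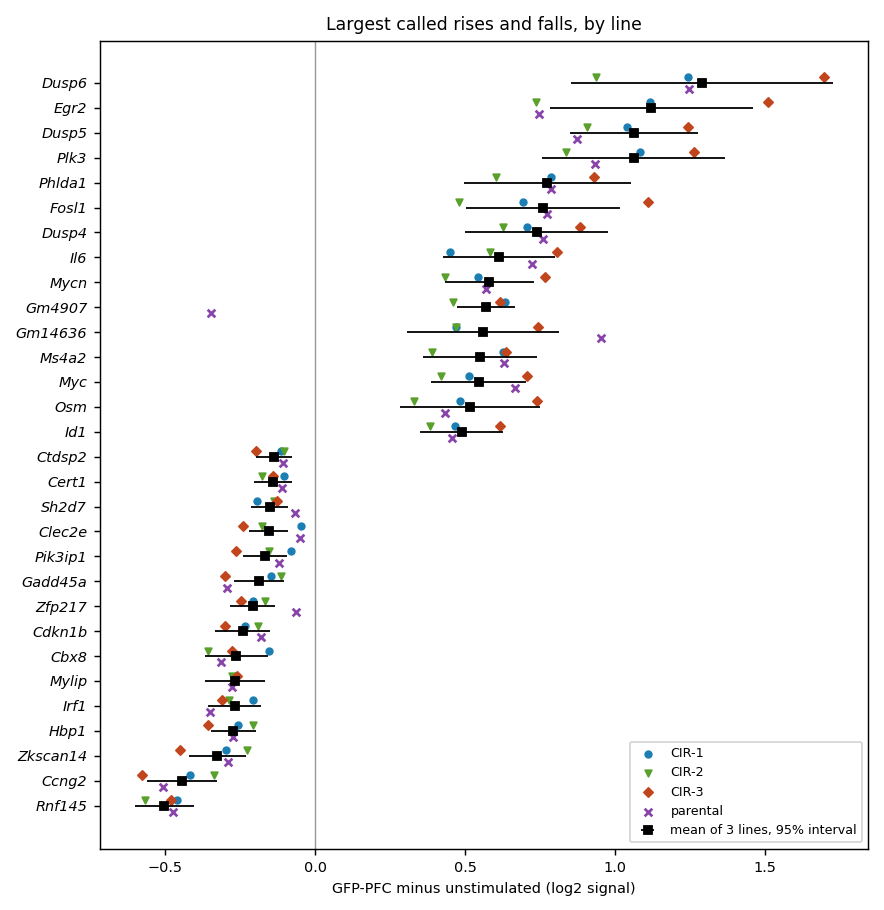
Difference between GFP-PFC and unstimulated arrays (log2 signal, horizontal axis) for the 15 highest called rises and the 15 largest called falls (vertical axis). Black squares are means of the 3 lines with 95% intervals, and coloured symbols are the lines. Crosses mark parental cells, which lie on the same side as the CIR lines for each of these genes but Gm4907.

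Early gp130 targets of the STAT3 kind showed little difference. Of 23 measured, Osm and Junb rose and Irf1 fell, beside 0.632% of all genes called, with a median of 0.03. None of the 3 was called without the block or without the arrays numbered 1 and 2. Socs3, the feedback inhibitor of gp130 signalling, read 9.41, 9.80 and 9.84 in unstimulated CIR-1 arrays and 9.54, 9.92 and 9.98 after GFP-PFC. In CIR-2 it read 9.41, 9.88 and 9.81 and then 9.44, 9.78 and 9.77, and in CIR-3 it read 9.12, 9.63 and 10.19 and then 9.10, 9.72 and 10.54. The groups overlapped in every line, and the mean difference was 0.08 (95% interval -0.13 to 0.29, adjusted p = 0.925). Cish, a STAT5 target, differed by 0.15 (0.03 to 0.27, adjusted p = 0.431). The kinase gene Pim1 differed by 0.00 (-0.13 to 0.13, adjusted p = 0.998), with unstimulated signals between 10.31 and 11.90.

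Osm encodes oncostatin M, a cytokine that itself acts through gp130. It read 8.68 to 9.20 unstimulated with a median of 8.72 and 8.83 to 10.15 after GFP-PFC with a median of 9.17, and the difference over the lines was 0.52 (SE 0.11, adjusted p = 0.0472). Leaving out 1 array at a time ended the Osm call in 14 of 18 cases. Irf1, an interferon regulatory factor, fell by 0.27 (SE 0.04, adjusted p = 0.0058) and was lower in 9 of 9 pairs. As the mean of its probe sets it was at -0.11 and not called (adjusted p = 0.168). Of 14 STAT5 targets, Id1 and Osm rose, beside 0.547% of all genes. Id1, an inhibitor of differentiation factors, rose by 0.49 (SE 0.06, adjusted p = 0.00203). None of the 18 receptor chains, JAKs and STATs was called, and their differences lay between -0.10 and 0.04.

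Of 22 NF-kB and inflammatory genes, 3 rose, beside 0.547% of all genes, with a median of 0.06. Il6, the cytokine whose receptor complex signals through gp130, read 10.51 to 11.30 unstimulated with a median of 10.68 and 10.85 to 11.69 after GFP-PFC with a median of 11.43. It rose by 0.61 (SE 0.09, adjusted p = 0.00325) in 9 of 9 pairs, with 0.45, 0.58 and 0.81 in the lines. Nfkbid, a nuclear inhibitor of the NF-kB family, rose by 0.45 (SE 0.06, adjusted p = 0.00186). The chemokine gene Cxcl10 was called at 0.33 (SE 0.07, adjusted p = 0.0469), with 0.30, 0.50 and 0.18 in the lines, and lost the call in 14 of 18 cases when 1 array was left out. Cxcl10 was also the sole called member of 20 interferon-stimulated genes, whose median was -0.02. Without the arrays numbered 1 and 2, Il6 and Nfkbid were the called members of the NF-kB list.

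Among lipid genes, 2 of 17 LXR genes fell and 3 of 22 genes of fatty acid and droplet handling rose. Over all genes tested, 0.0853% fell and 0.547% rose. Rnf145, an LXR-induced ubiquitin ligase of the endoplasmic reticulum, was the largest fall. It read 10.89, 10.89 and 10.88 in unstimulated CIR-1 arrays and 10.48, 10.61 and 10.19 after GFP-PFC. It read 11.09, 11.02 and 11.12 and then 10.63, 10.61 and 10.30 in CIR-2, and 11.30, 11.37 and 11.26 and then 10.85, 10.96 and 10.69 in CIR-3. The unstimulated arrays of a line were close to each other, and each lay above every GFP-PFC array of its line. The mean difference was -0.50 (SE 0.05, adjusted p = 2.05e-04), which makes the unstimulated signal 1.42-fold higher, with -0.46, -0.57 and -0.48 in the lines. Such a separation downward in all 3 lines held for 4 genes (0.0201% of those tested).

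Mylip, the LXR-induced ligase that targets the LDL receptor, was another of those 4. It fell by 0.27 (SE 0.05, adjusted p = 0.0147), with -0.26, -0.28 and -0.26 in the lines, and was not called without the arrays numbered 1 and 2. The other 15 LXR genes were not called. The sterol transporters Abca1 and Abcg1 differed by -0.06 (SE 0.06, adjusted p = 0.888) and -0.08 (SE 0.03, adjusted p = 0.48), and the list median was -0.06. None of 22 cholesterol synthesis genes was called, and their differences lay between -0.04 and 0.10.

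Plin2, which coats lipid droplets and is a PPAR target, read 10.68, 10.47 and 10.24 in unstimulated CIR-1 arrays and 10.96, 10.66 and 10.70 after GFP-PFC. The values were 10.56, 10.54 and 10.45 and then 11.04, 10.88 and 10.69 in CIR-2, and 10.73, 10.58 and 10.56 and then 11.19, 10.87 and 10.72 in CIR-3. All 9 pairs rose, with overlap in CIR-1 and CIR-3. The mean difference was 0.32 (SE 0.04, adjusted p = 0.00144), nearly equal in the lines at 0.32, 0.35 and 0.31. Hilpda, an inhibitor of droplet lipolysis, rose by 0.24 (SE 0.04, adjusted p = 0.0107), and Slc25a20, the mitochondrial carnitine carrier, by 0.18 (SE 0.03, adjusted p = 0.0132), or 0.09 without a call at exon level. Hilpda was not called at exon level either. The other 19 of the 22 PPAR and droplet genes were not called, with Cpt1a at 0.20 (SE 0.05, adjusted p = 0.156), Angptl4 at -0.06 (SE 0.06, adjusted p = 0.881) and Pdk4 at -0.05 on a signal of 6.13. The list median was 0.00. Without the arrays numbered 1 and 2, Plin2 was the sole called member.

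Growth-arrest genes that FOXO factors activate held 4 of the 17 called falls. Of 24 in the list, 4 fell and 1 rose, beside 0.0853% and 0.547% of all genes, with a median of -0.03. In 9 of 9 pairs 6 were lower, beside 0.617% of all genes. Ccng2, an atypical cyclin linked to cell cycle exit, read 10.07, 9.18 and 9.36 in unstimulated CIR-1 arrays and 9.49, 8.76 and 9.11 after GFP-PFC. It read 9.85, 8.99 and 9.13 and then 9.22, 8.63 and 9.10 in CIR-2, and 10.03, 9.22 and 9.41 and then 9.24, 8.74 and 8.95 in CIR-3. The arrays numbered 1 and 2 were high in both states, so the groups overlapped in each line although all 9 pairs fell. The mean difference was -0.44 (SE 0.05, adjusted p = 0.00169), with an adjusted p of 0.812 without the block.

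Cdkn1b, the cyclin-dependent kinase inhibitor p27, fell by 0.24 (SE 0.04, adjusted p = 0.0154). Gadd45a, a DNA damage and growth-arrest gene, was at -0.19 (SE 0.04, adjusted p = 0.0462) and Pik3ip1, an inhibitor of phosphatidylinositol 3-kinase, at -0.17 (SE 0.03, adjusted p = 0.0435). Cdkn1b, Gadd45a and Pik3ip1 lost their calls both without the block and without the arrays numbered 1 and 2. The list member that rose was Zfp36l2, an mRNA decay factor, at 0.32 (SE 0.06, adjusted p = 0.0164). Tsc22d3, the glucocorticoid-induced leucine zipper gene and a FOXO target, was lower in 9 of 9 pairs at -0.26 (SE 0.06, adjusted p = 0.0653) and was not called. Of its 7 exon-level probe sets 4 were lower and 3 higher, at -0.59 to 0.08 with a median of -0.09.

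Outside these lists, Hbp1, an HMG-box repressor of the cell cycle, fell by 0.27 (SE 0.04, adjusted p = 0.00186), with -0.26, -0.21 and -0.36 in the lines. Zkscan14, a zinc finger gene, fell by 0.33 (SE 0.05, adjusted p = 0.00282), the Polycomb gene Cbx8 by 0.26 (SE 0.05, adjusted p = 0.0215) and the zinc finger gene Zfp217 by 0.21 (SE 0.04, adjusted p = 0.0115), and of these 4 genes Hbp1 alone kept its call without the arrays numbered 1 and 2. Among the rises, the predicted gene Gm14636 was called at 0.56 (SE 0.12, adjusted p = 0.0476) and lost the call in 15 of 18 cases when 1 array was left out. Clec2e, Sh2d7, Ctdsp2 and Cert1, the ceramide transfer protein, were called at -0.16 to -0.14, and each lost its call without the arrays numbered 1 and 2. Clec2e had means of 5.95 and 5.80, below the lower quartiles, so its signal is not shown to lie above background. The pairs numbered 5 and 6 had a median of -0.14 over the 17 called falls beside -0.27 for numbers 1 and 2 and -0.25 for numbers 3 and 4. For the 109 rises these medians were 0.21, 0.25 and 0.27 in the same order.

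The uptake lists held no called gene, beside 0.632% of all genes tested. At that share, lists of this size may well hold none. None of 30 clathrin endocytosis genes (-0.07 to 0.04), 24 endosome sorting genes (-0.06 to 0.21), 31 lysosome genes (-0.04 to 0.10) and 17 cargo and scavenger receptors (-0.06 to 0.23) passed the test. Heat shock (13 genes), oxidative stress (20), ribosome biogenesis (25), G1/S (25) and G2/M (24) lists also held no called gene, which at that share says little about them. Of 24 hypoxia and glycolysis genes, Hk2, a hexokinase, rose by 0.27 (SE 0.05, adjusted p = 0.0147) and the vascular growth factor gene Vegfa by 0.21 (SE 0.04, adjusted p = 0.0356). Neither was called without the arrays numbered 1 and 2. Vegfa was also the sole called member of 25 amino acid response genes. Of 16 apoptosis regulators, Cflar, an inhibitor of caspase-8 activation, rose by 0.37 (SE 0.04, adjusted p = 3.95e-04) in every line without overlap. Of 21 unfolded protein response genes, Xbp1 was called at -0.13 (SE 0.03, adjusted p = 0.0371), and lost the call without the arrays numbered 1 and 2 and in 15 of 18 cases when 1 array was left out.

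**Figure D3:**
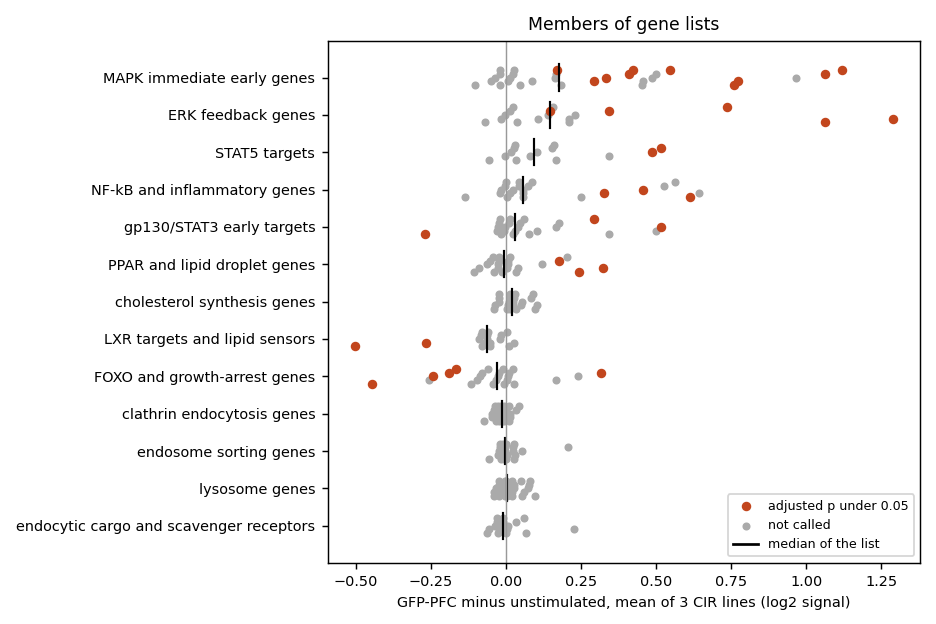
Differences of single genes (GFP-PFC minus unstimulated, mean of 3 CIR lines, log2 signal) in 13 gene lists along the vertical axis, with called genes in orange, others in grey and the list median as a black bar. Called genes lie to the right in the immediate early and feedback lists and to the left in the LXR and most of the FOXO list, and the 4 uptake lists hold none.

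Marker lists of other blood cells were level between the groups. Of 12 mast cell and basophil markers, Ms4a2 was called and 11 were not. The mean of this list over an array was 7.46 to 7.67 unstimulated and 7.58 to 7.71 after GFP-PFC, and Fcer1a (5.01), Cpa3 (5.46) and Mcpt4 (5.46) lay below the lower quartiles. Ms4a2, the beta chain of the high-affinity IgE receptor, rose by 0.55 (SE 0.09, adjusted p = 0.00846) with no overlap in any line. None of the 19 pro-B cell, 12 macrophage, 12 neutrophil, 11 T-cell and 9 erythroid or megakaryocyte markers was called. None of 6 genes typical of Ba/F3 culture was called. With 0.632% of all genes called, these lists may well hold none.

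Each line was also tested by itself. With the spread shared over the 18 arrays and 3 arrays a side, CIR-1 had 1 called gene (Gm4907, 0.00502% of genes, with 1101 at an unadjusted p under 0.05). CIR-2 had 0 (690 unadjusted, the smallest adjusted p being 0.0867 for Rnf145, and 4 genes with array weights), and CIR-3 had 4 (0.0201%, with 925 unadjusted), namely Gm4907, Dusp5, Ier2 and Cflar. Over the 109 rises the line medians were 0.24, 0.21 and 0.28, in the order CIR-1 to CIR-3. CIR-3 had the largest difference of the lines for 75 of the 109, and CIR-2 the smallest for 69. These genes were chosen on the mean of the same arrays, so the medians are a description.

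A test of whether the response differed among the 3 lines called 0 genes with limma's moderated F-test, with 436 at an unadjusted p under 0.05 and 0 in every alternative run. The genes with the smallest p were Gask1b, Mir106a, Lrch2, Serpinb6b and Sat2, each with an adjusted p near 1. Gask1b was at 0.18, -0.44 and 0.04 in CIR-1, CIR-2 and CIR-3. Serpinb6b, a serine protease inhibitor gene, was at 0.01, -0.02 and -0.46. A single line's difference had a 95% interval of 0.76 on either side for Dusp6, 0.59 for Egr2 and 0.37 for Dusp5, as wide as most gaps between lines. Leaving CIR-3 out of the mean left 14 called genes, and leaving out CIR-1 or CIR-2 left 47 or 67. Dusp6, Egr2, Dusp4, Ier2 and Hbp1 kept their calls under the other 34 alternatives and lost them without CIR-3, while Dusp5, Gm4907, Rnf145 and Cflar kept them under all 35.

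Parental cells, without a construct, had differences of the same sign for most of the called genes. Of the 109 rises 107 were above 0 in parental cells, and of the 17 falls 17 were below 0. The medians there were 0.24 and -0.18. Dusp6 differed by 1.25 in parental cells, so that the CIR mean minus parental was 0.04 (95% interval -0.73 to 0.82). The same contrast was 0.37 (-0.22 to 0.97) for Egr2, 0.19 (-0.19 to 0.57) for Dusp5, -0.03 (-0.22 to 0.16) for Rnf145 and 0.04 (-0.13 to 0.22) for Plin2. These intervals hold 0 and are wide for the ERK genes, so they bound the gap and do not show equal responses.

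In that contrast 1 gene of 19936 (0.00502%) was called, with 532 at an unadjusted p under 0.05. Gm4907, a predicted gene on chromosome X, read 7.72, 7.84 and 7.62 in unstimulated CIR-1 arrays and 8.42, 8.31 and 8.36 after GFP-PFC. It read 7.27, 7.17 and 7.02 and then 7.70, 7.63 and 7.50 in CIR-2, and 7.65, 7.77 and 7.87 and then 8.39, 8.31 and 8.45 in CIR-3. Parental arrays read 6.19, 6.29 and 6.58 and then 5.67, 6.19 and 6.16, around or below the lower quartiles. Gm4907 was thus higher in every unstimulated CIR array than in any parental array and rose further with no overlap in each CIR line, by 0.57 over the lines (SE 0.05, adjusted p = 6.21e-05).

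The CIR mean minus parental was 0.92 (SE 0.13, adjusted p = 0.0338). That call was lost with quantile normalization, with exon-level values, without the arrays numbered 1 and 2 and in 19 of 24 cases when 1 array was left out. The parental signals are not shown to lie above background, so the parental value of -0.35 does not bear a direction of its own. A single gene-level probe set reads the gene, and both of its exon-level probe sets were higher after GFP-PFC in the CIR lines, by 0.53 each. The next genes by p in this contrast, Mcpt2, Dmrta1, Slc40a1 and Cdc42bpa, had adjusted p values near 1.

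**Figure D4:**
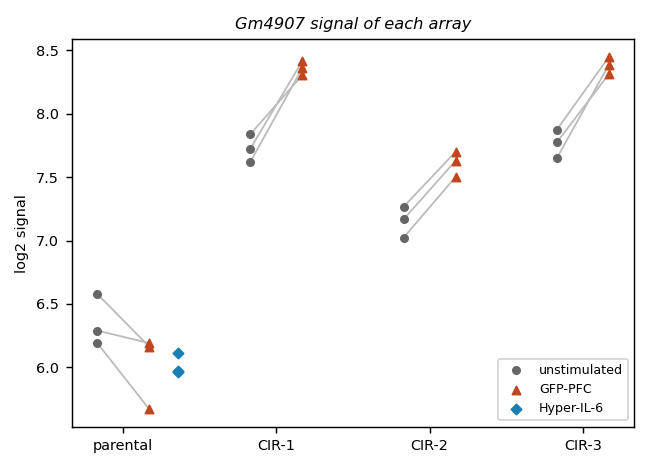
Log2 signal of Gm4907 in the 27 arrays by line (horizontal axis), with unstimulated arrays as grey circles, GFP-PFC arrays as orange triangles, consecutive numbers joined by lines and Hyper-IL-6 arrays of parental cells as blue diamonds. CIR arrays rise from 7.02 to 7.87 to 7.50 to 8.45, and parental arrays stay at 5.67 to 6.58.

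Set beside Hyper-IL-6 in parental cells, the emulsion left most STAT3 targets at far smaller differences. No ERK feedback gene was called for the gap, which does not show equal responses. The gap between the responses, which share no array, was called for 65 genes (0.326%), 2 higher and 63 lower with GFP-PFC in the CIR lines. It was called for 122, 33 or 34 genes without Hyper-IL-6 array 2, 4 or 6, and for 43 without parental unstimulated array 3. Socs3 rose by 3.06 with Hyper-IL-6, in arrays at 12.54, 12.98 and 13.01, and the gap was -2.98 (SE 0.32, adjusted p = 6.11e-06). Lif, a cytokine of the gp130 family, showed a gap of -3.39 (SE 0.32, adjusted p = 9.78e-07) and Osm one of -3.25 (SE 0.26, adjusted p = 4.84e-08). The stress gene Gadd45g was at -3.01, the cytokine gene Il10 at -2.80 and Zfp36 at -2.47, all called.

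Of the 23 early gp130 targets, 16 rose with Hyper-IL-6 and 13 differed between the responses, all lower with GFP-PFC. The shares over all genes were 0.732% and 0.326%. Irf1 moved in opposite directions, with a rise of 1.52 after Hyper-IL-6 against its fall in the CIR lines (gap -1.78, SE 0.15, adjusted p = 1.69e-07). None of the 17 ERK feedback genes and 4 of the 30 immediate early genes were called for the gap, beside 0.326% of all genes. The median of the feedback genes was 0.15 with GFP-PFC and 0.24 with Hyper-IL-6. For the immediate early genes these medians were 0.18 and 0.58. Egr2 rose by 2.18 with Hyper-IL-6, and its gap of -1.06 (SE 0.41) was not called. Dusp6 rose by 1.44 with Hyper-IL-6, with a gap of -0.15 (SE 0.37). Dusp5 differed by 0.98 there (adjusted p = 0.26), with a gap of 0.08 (SE 0.35). Of the 109 rises 26 (23.9%) also rose with Hyper-IL-6, which are 17.8% of the 146 genes (0.732%) that rose there, where 8 (0.0401%) fell. Rnf145 and Plin2 differed by -0.08 and 0.02 with Hyper-IL-6, neither of them called, and their gaps of -0.42 (adjusted p = 0.303) and 0.31 did not pass the test. Beside Gm4907, the gene with a higher value under GFP-PFC was Tigd3, at a gap of 0.35 (SE 0.07, adjusted p = 0.0351). The Tigd3 call was lost in 16 of 35 alternatives, 13 of them among the 27 that left out 1 array. Gm4907 read 5.96, 6.12 and 5.97 in the Hyper-IL-6 arrays, below the lower quartiles, so its gap is one of signals not shown to lie above background on that side.

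**Figure D5:**
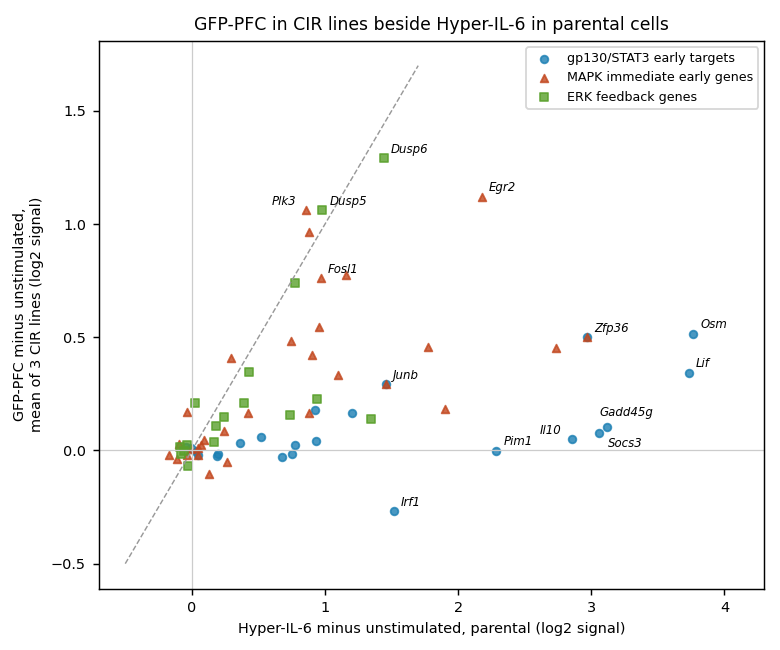
Difference of each gene with Hyper-IL-6 in parental cells (horizontal axis) and with GFP-PFC as the mean of 3 CIR lines (vertical axis), both against unstimulated arrays in log2 signal, for gp130/STAT3 targets (blue circles), immediate early genes (orange triangles) and ERK feedback genes (green squares). The dashed line marks equal differences, with Dusp6 and Dusp5 near it and Socs3, Osm and Lif far to the right of it.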

How the data were processed

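RNA of 27 samples (150 ng each) was amplified and read on Affymetrix mouse arrays, per the labels. The authors made the deposited gene-level and exon-level values in Affymetrix Expression Console, according to the submitters' processing notes and per the labels, and these were taken as log2 signal from their range of 3.01 to 14.8. Its algorithm, version, normalization and log base are not given in the sources used here, so folds rest on that reading. Array annotation gave 1 symbol to 21789 of 35556 probe sets, several to 1621 and none to 12146. Of those with 1 symbol, 21701 matched RefSeq and 2 symbols were updated. The brightest probe set was kept for 1001 genes with several, which left 19936 genes without a filter on dim ones. The exon-level table gave 20352 genes.

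Tests were run with limma 3.58.1 under R 4.3.3, and tables were read with data.table in version 1.17.8. Each fit had 1 mean per line and state and a 3-level block of consecutive array numbers, with two-sided moderated tests and Benjamini-Hochberg adjustment over all genes at 0.05. Parental cells were compared in 24 arrays with the block, and Hyper-IL-6 in 27 arrays without it. The labels do not state the pairing: it was accepted because deviations from group means were positively correlated in all 9 consecutive pairs (r across genes 0.282 to 0.633). Same-numbered arrays of different lines were correlated as well (0.211 to 0.605 over 18 pairs), and no arrays were identical. In each line the lowest-numbered block stood apart on a component with 42.3% of the variance around group means. Arrays of the other blocks can therefore correlate without being pairs. Unstimulated and GFP-PFC arrays of different blocks were not compared, so these correlations cannot decide the pairing outside the lowest-numbered block. The procedure was run on data simulated from the block model with independent noise, so that run does not test the pairing. The arrays' number limits the precision.

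The text names up to 15 rises and 15 falls with the same sign in 3 lines, and passing members of 25 of the 32 gene lists. The other 7 are marker lists. A few set readouts and the genes of smallest p in the other contrasts are named as well. Members and lists were chosen with earlier results of these data known. Alternatives changed the block, the arrays entered, the normalization, the treatment of dim genes and probe sets, the level and the weights, and left out arrays and lines in turn. Counts of list members under these alternatives were added after seeing the data.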

Additional observations from a re-analysis of the deposited data

Results flagged for a closer look

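Gm4907 passed the test of the difference between the CIR lines and parental cells. The mean difference of the 3 CIR lines minus that of parental cells was 0.9157 on the log2 scale (SE 0.13, adjusted p = 0.0338 with limma over 19936 genes), with 9 of 9 CIR pairs higher. The call was lost in 22 of 32 alternatives. The parental signals lay around or below the arrays' lower quartiles and are not shown to lie above background, so the value is a difference of signals, and the gene's own level before stimulation differed between the lines as well. Their part in the result was not tested.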

How the results depend on the processing

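The count of called genes in the mean of the 3 lines (126) moved with the pairing. With no replicate block it was 16, on 18 or on 27 arrays, with the block on 27 arrays 78, and as 9 paired differences 223. CIR-3 alone (4) then had 1 without the block on 18 arrays and 0 on 27, 10 with it on 27, 19 with it on 24 and 31 with a block per pair. CIR-1 (1) had 8 with a block per pair and 0 on 24 arrays or on 27 without the block, and CIR-2 (0) had 1 with a block per pair and with the block on 24 or 27 arrays. The gap to Hyper-IL-6 (65) called 151 with the block.

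Other choices moved the mean's count to 80 (exon level), 246 (array weights), 203 (spread modelled on the mean), 49 (without the arrays numbered 1 and 2), and 47, 67 and 14 (without CIR-1, CIR-2 or CIR-3). CIR-1 had 2 at exon level, 3 with the modelled spread and 0 without numbers 1 and 2. CIR-2 had 1, 4 with weights and 4 with the modelled spread. CIR-3 had 7 at exon level, 12 without dim genes, 13 after quantile normalization, 14 with centred arrays, 19 with weights, 42 with the modelled spread and 0 without numbers 1 and 2. The gene that differed from parental cells was lost (0) after quantile normalization, at exon level and without numbers 1 and 2. The gap to Hyper-IL-6 called 440 with weights and 344 without numbers 1 and 2. Leaving out 1 array at a time gave 75 to 188 for the mean, with 75 to 83 without CIR-1 arrays 3 or 4, CIR-2 arrays 1, 2 or 3 and CIR-3 arrays 1 or 3. It gave 0 to 3 for CIR-1, 0 to 1 for CIR-2, 0 to 13 for CIR-3, 0 to 1 against parental cells and 33 to 122 against Hyper-IL-6. The causes were not tested. No called gene whose alternatives were computed changed sign in any of them. They were not computed for Gpr171, Jam2, Paqr7, Cnn2, Sinhcaf and, but for Rpp38, the genes of the closing observations. The test among lines called 0 in each.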

Other observations

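Of the 126 called genes, 88 were in no list. The genes below were picked from those 88 after their values were seen, with no list or test of a group behind them. Sik1, a salt-inducible kinase, rose by 0.38 (adjusted p = 0.00169), Kdm6b, a histone H3 demethylase, by 0.35 (adjusted p = 0.00336) and Nfil3, a basic leucine zipper repressor, by 0.27 (adjusted p = 0.0118). The Krüppel-like factor genes Klf9, Klf10 and Klf11 were called at 0.20, 0.26 and 0.24. Noct, which acts on NADP cofactors, rose by 0.31 (adjusted p = 0.00239). Hbegf, a ligand of the EGF receptor, rose by 0.31 (adjusted p = 0.0176), and Plaur, the urokinase receptor, by 0.47 (adjusted p = 0.0356).

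Polr3d, a subunit of RNA polymerase III, rose by 0.22 (adjusted p = 0.00824) and Taf1a, a factor of RNA polymerase I, by 0.27 (adjusted p = 0.00186). Rpp38, a protein of ribonuclease P, rose by 0.23 (adjusted p = 0.00169) and Yrdc, a tRNA-modifying enzyme, by 0.16 (adjusted p = 0.0147). The peroxisome gene Pex11a rose by 0.23 (adjusted p = 0.00846) and the coenzyme Q gene Coq10b by 0.27 (adjusted p = 0.013).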
